A study of Homo sapiens with 9 samples.

Results

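The genes described here are 9 genes of the lipoprotein particles that hepatocytes secrete. APOA1, APOA2, APOB, APOC1, APOC3, APOE, APOH and APOM encode apolipoproteins, and MTTP encodes the lipid transfer protein that loads APOB. They were taken by their symbols from a table of 22587 genes, in which all 9 had a row, and all 9 passed the filter on low values. The table holds RNA-seq of HepG2, a human tumor line of the liver in long-standing use, as FPKM, in which the fragments of a gene are divided by its length and by the library's depth. The 9 libraries fall into 3 groups of 3. The first group was kept in normal high-glucose DMEM with Gln (Gln added), with no time stated, and the others were deprived of Gln for 12 h or for 24 h in DMEM without Gln. All 3 groups are the same line, and no genetic change is named. GlutaMAX, a dipeptide that cells split to Gln, is listed in the labels as the treatment of the Gln-added samples, whereas the treatment protocol places it in the medium of the deprived cells. Nothing says that the replicates were separately grown cultures beyond their numbers, so the p-values measure the spread between these samples, which may be technical.

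Apolipoproteins are the protein coat of the particles that carry triglyceride and cholesterol in blood. In the liver, APOB is lipidated by MTTP as it is made and forms the core protein of very low density lipoprotein (VLDL), whereas APOA1 and APOA2 form the scaffold of high density lipoprotein (HDL). The small exchangeable apolipoproteins move between particles, where they set lipase activity and uptake by receptors. HepG2 cells are widely used to study this secretion.

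The depth was 29621270 to 36261546 fragments on genes per library, recovered from the steps of the FPKM values. In a principal component analysis, replicate 1 at 24 h and replicate 3 at 12 h lay apart from the other libraries of their groups on the second component, with 12.1% of the variance. For the genes named here, calls against Gln added that were lost or gained without them are given beside the gene. The hepatocyte markers ALB, TTR, TF, SERPINA1, AHSG, AFP and FGB were all detected and summed to 7089 to 7165 FPKM with Gln added, 6484 to 6666 after 12 h and 6641 to 6992 after 24 h. Of these 7 markers, 1 was higher and 5 were lower at each time. Of all genes tested, 29.1% were higher and 31.0% lower after 12 h, and 33.0% and 31.7% after 24 h. Markers of endothelial cells and of fibroblasts and stellate cells summed to under 0.5 FPKM in each library. The macrophage gene CD68 was at 35.9 to 36.3 FPKM with Gln added, 28.6 to 31.6 after 12 h and 21.2 to 25.7 after 24 h, and PTPRC and CD3E were not analysed here. In the cholangiocyte list, KRT7 and CFTR were under 0.5 FPKM in all libraries, and the list, nearly all of it SOX9, summed to 48.2 to 49.1, 78.5 to 81.2 and 78.2 to 90.2 FPKM in the 3 groups. The part of these genes in the results was not tested. FPKM are relative to the library's depth, so changes in cell number or in total RNA per cell are not seen in them. A lower FPKM thus need not be a lower amount per cell.

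With Gln added, the levels of the 9 genes spanned a wide range. APOA2 had the highest level, 2545 ± 32.2 FPKM (SD, n = 3), followed by APOA1 with 1339 ± 32.1, APOH with 1311 ± 35.4, APOB with 821 ± 14.0, APOE with 668 ± 18.5, APOC1 with 253 ± 4.60, APOC3 with 201 ± 7.66, APOM with 75.9 ± 0.908 and MTTP with 26.5 ± 0.926. APOA1 and APOH are neighbours in this order whose levels did not differ beyond their spread. After 12 h APOH, at 1128 ± 13.6 FPKM, lay above APOA1, at 1042 ± 21.9, in all libraries, and after 24 h their levels, 1056 ± 10.5 and 1007 ± 81.5, overlapped. The levels of APOC3 and APOM came together after 24 h, when APOM, at 113 ± 5.87 FPKM, and APOC3, at 102 ± 5.38, overlapped. APOA2 ranked 11 to 12 among all genes in these libraries, and MTTP ranked 2212 to 2367. FPKM divide by gene length, so the order in fragments differs. APOB, the longest of the 9, took 1.16% of all fragments on genes, more than the 0.175% of APOA1 or the 0.121% of APOA2. Together the 9 genes took 1.73% to 1.76% of the fragments with Gln added, 1.72% to 1.73% after 12 h and 1.67% to 1.70% after 24 h. Most of this share is APOB. Their summed FPKM, in which APOB weighs less, was 7241 ± 35.9 with Gln added, 6439 ± 189 after 12 h and 6582 ± 243 after 24 h.

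Gln deprivation moved the 9 genes in different directions. At 12 h against Gln added, 1 gene rose (APOM), 5 fell (APOA1, APOA2, APOC1, APOC3 and APOH) and 3 did not pass the test (APOB, APOE and MTTP). Calls are at an adjusted p under 0.05, from limma on log2(FPKM + 0.1) with Benjamini-Hochberg adjustment over the 11880 genes tested. Of all genes tested, 60.2% were called, 29.1% higher and 31.0% lower. At 24 h against the same Gln-added libraries, 2 rose (APOM and APOE), 5 fell (APOA1, APOC1, APOC3, APOH and MTTP) and 2 did not pass (APOA2 and APOB), where 64.7% of all genes were called, 33.0% higher and 31.7% lower. Between 12 h and 24 h, 1 gene rose further (APOM), 2 fell (APOC3 and MTTP) and 6 did not pass, against 20.1% of all genes called, 9.57% higher and 10.5% lower. For a set of 9 genes, these 6, 7 and 3 calls are near the shares of all genes.

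The median log2 fold change of the 9 genes was -0.18 after 12 h and -0.23 after 24 h, against -0.02 and 0.01 over all genes tested. The sizes of their changes, taken without sign, had a median of 0.19 after 12 h and 0.26 after 24 h on the log2 scale. The 2373 genes at or above the mean level of MTTP (25.3 FPKM) had median sizes of 0.23 and 0.26. The 3 libraries of each group did not overlap with Gln added in 7 of the 9 genes after 12 h and in 7 after 24 h, and 12 h and 24 h did not overlap in 5, where the shares over all genes tested were 67.2%, 69.9% and 34.4%. A two-sided exact permutation test of 3 libraries against 3 cannot give a p below 0.1, and gave 0.1 for each of these.

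**Figure D1:**
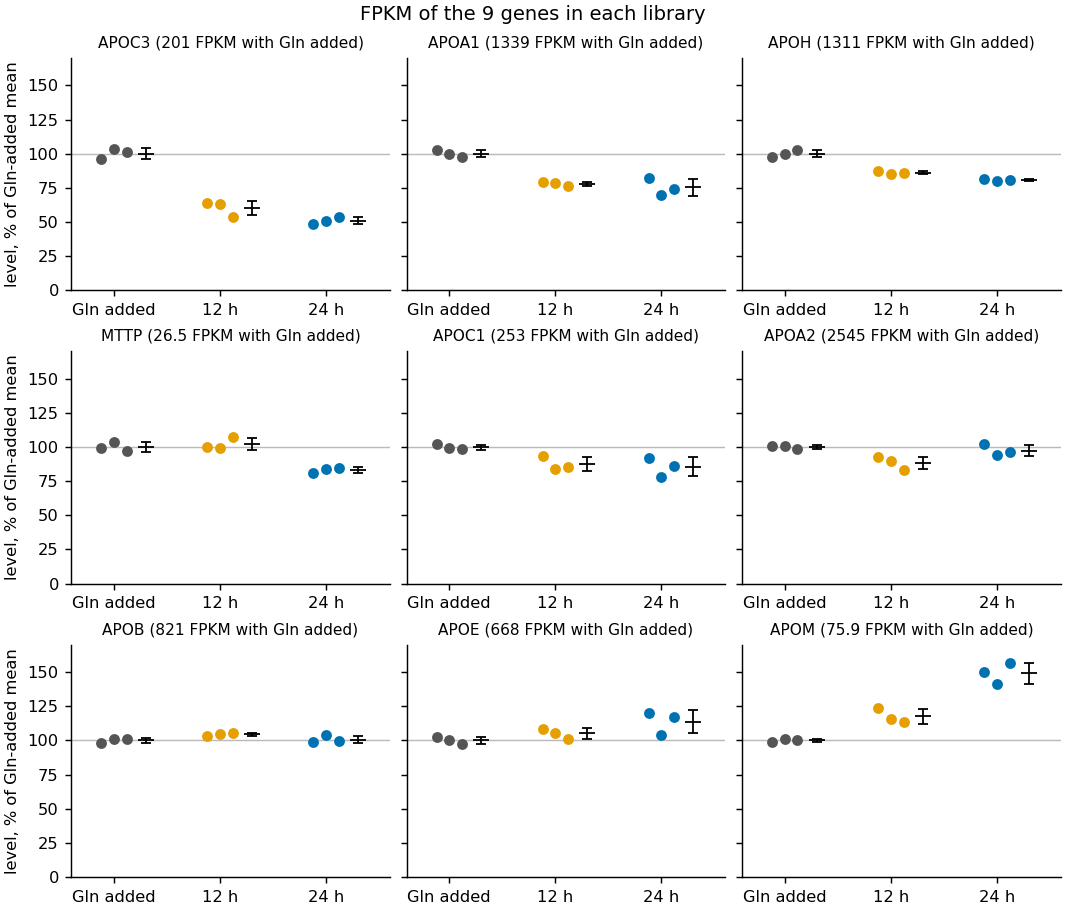
Level of each of the 9 genes in each library, in percent of its mean with Gln added, with 1 point per library and the mean ± SD of 3 libraries beside them. APOC3 is the gene with the lowest level after 24 h relative to Gln added and APOM the one with the highest, and all 9 panels share an axis that starts at 0.

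APOC3, which inhibits lipoprotein lipase and slows the clearance of triglyceride-rich particles, fell most of the 9. Its levels were 193, 208 and 203 FPKM with Gln added, 128, 126 and 108 after 12 h and 97.0, 102 and 108 after 24 h. All deprived libraries lay far below the Gln-added libraries, and the lowest library after 12 h lay just above the highest after 24 h. APOC3 fell by 39.9% after 12 h (log2 fold change -0.74, SE 0.064, limma adjusted p = 3.56e-06) and by 49.1% after 24 h (log2 fold change -0.97, SE 0.064, limma adjusted p = 3.00e-07). Both calls held in all 20 alternative analyses, with log2 fold changes from -0.78 to -0.66 after 12 h and from -1.01 to -0.92 after 24 h. The further fall from 12 h to 24 h was smaller, -0.24 (SE 0.064, limma adjusted p = 0.0256), and held in 13 of 20. That call was lost without replicate 1 or replicate 2 of 12 h (adjusted p = 0.0948 for each) and without replicate 1 or replicate 2 of 24 h (adjusted p = 0.0630 and 0.0539). It rests on 1823 to 2451 fragments per deprived library, the fewest of the 9 genes.

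APOA1, the main structural protein of HDL and the cofactor of the enzyme that esterifies its cholesterol, fell at both times. Its levels were 1371, 1339 and 1307 FPKM with Gln added, 1061, 1047 and 1018 after 12 h and 1097, 937 and 989 after 24 h. The deprived libraries all lay below the Gln-added libraries, and those of 12 h and 24 h overlapped, with replicate 1 at 24 h above all 3 of 12 h. APOA1 fell by 22.2% after 12 h (log2 fold change -0.36, SE 0.052, limma adjusted p = 1.57e-04) and by 24.8% after 24 h (-0.41, SE 0.052, limma adjusted p = 4.60e-05). Without replicate 1 at 24 h, the library that lay apart, the fall after 24 h was -0.48. From 12 h to 24 h the difference was -0.05 (95% interval -0.17 to 0.06, limma adjusted p = 0.531). In GENCODE v44, APOA1 lies on the minus strand at chr11:116835751-116837622, and exons of the antisense gene APOA1-AS cover 11.2% of its exonic bases. Whether the counting used strand is not clear from the sources, so reads of the antisense gene cannot be told apart.

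APOA2, the second protein of HDL, fell after 12 h, and after 24 h did not pass the test. Its levels were 2567, 2560 and 2508 FPKM with Gln added, 2350, 2279 and 2122 after 12 h and 2593, 2392 and 2449 after 24 h. The 12 h libraries lay below all others, and the 24 h libraries overlapped with those with Gln added. APOA2 changed by -0.18 on the log2 scale after 12 h (SE 0.046, limma adjusted p = 0.00614) and -0.04 after 24 h (95% interval -0.14 to 0.06, limma adjusted p = 0.472). With no filter on low values the adjusted p after 12 h was 0.131. The direct comparison of 24 h with 12 h gave 0.14 (SE 0.046, limma adjusted p = 0.0555), so this difference did not pass the test, although the libraries of the 2 times did not overlap. It passed in 6 of 20 alternatives, among them those without replicate 1 at 12 h (adjusted p = 0.0479) or without replicate 2 at 24 h (0.0346), and with the replicate number as a block (0.0308).

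APOM, an apolipoprotein of the lipocalin family that carries a signaling sphingolipid on HDL, rose at both times. Its levels were 74.9, 76.6 and 76.2 FPKM with Gln added, 94.0, 87.9 and 86.2 after 12 h and 114, 107 and 119 after 24 h. The 3 groups did not overlap and stood in the order of the time without Gln. The log2 fold change was 0.23 after 12 h (SE 0.045, limma adjusted p = 0.00109), 0.58 after 24 h (SE 0.045, limma adjusted p = 1.20e-06) and 0.34 from 12 h to 24 h (SE 0.045, limma adjusted p = 5.36e-04). All 3 calls held in the 20 alternatives. The level after 24 h was 1.49 times that with Gln added. APOM lies on the plus strand at chr6:31652416-31658210, where exons of BAG6 on the opposite strand cover 11.0% of its exonic bases. BAG6 itself rose by 0.28 after 12 h and 0.42 after 24 h on the log2 scale (limma adjusted p = 2.70e-04 and 1.23e-05), and its part in the APOM values was not tested.

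**Figure D2:**
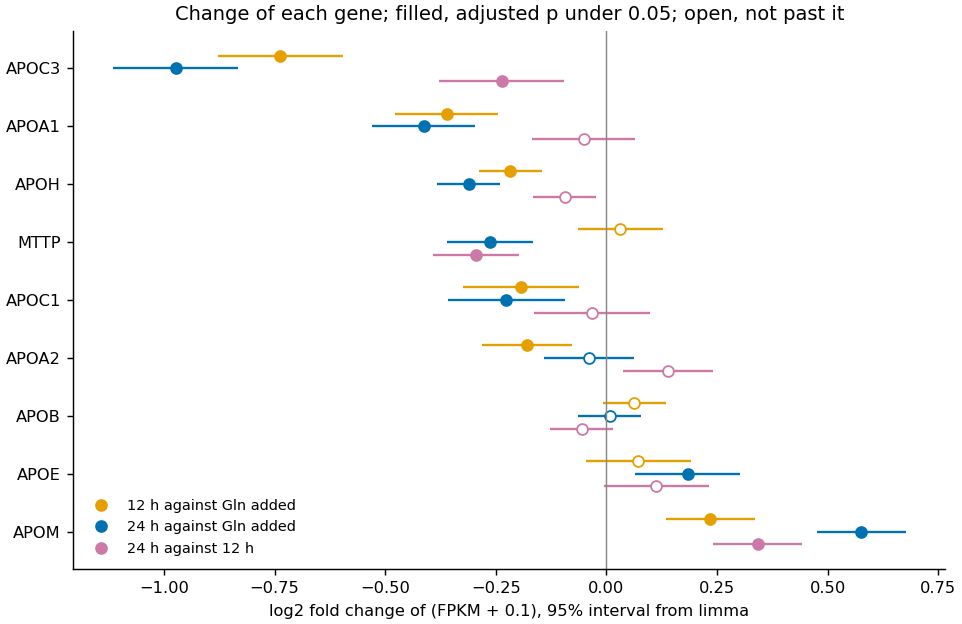
Log2 fold change of each of the 9 genes in the 3 comparisons, with 95% intervals from limma, filled where the adjusted p was under 0.05 and open where it was not. The genes run from APOC3 (-0.97 after 24 h) to APOM (0.58 after 24 h), and APOB has open points in all 3 comparisons.

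APOB, the single large protein of each VLDL and low density lipoprotein (LDL) particle, did not pass the test in any of the 3 comparisons. Its levels were 805, 827 and 831 FPKM with Gln added, 849, 861 and 864 after 12 h and 810, 851 and 816 after 24 h. The 12 h libraries lay above the Gln-added libraries without overlap, and the 24 h libraries overlapped with both. The log2 fold change was 0.06 after 12 h (95% interval -0.01 to 0.13, limma adjusted p = 0.115), 0.01 after 24 h (95% interval -0.06 to 0.08, limma adjusted p = 0.858) and -0.06 between the times (95% interval -0.13 to 0.02, limma adjusted p = 0.258). With 355176 to 440804 fragments per library, APOB had the tightest spread after 12 h, a coefficient of variation of 0.895%. The small difference after 12 h passed the test when FPKM were rescaled to the same total (0.10, adjusted p = 0.0270), when the 10 most abundant genes were left out of that total (0.10, adjusted p = 0.0277) and in voom on the recovered fragments (0.06, adjusted p = 0.0464).

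MTTP, which transfers triglyceride to APOB in the endoplasmic reticulum, fell after 24 h. Its levels were 26.4, 27.5 and 25.7 FPKM with Gln added, 26.5, 26.4 and 28.5 after 12 h and 21.5, 22.2 and 22.6 after 24 h. The libraries after 12 h overlapped with those with Gln added, and those after 24 h lay below all others. MTTP had a log2 fold change of 0.03 after 12 h (95% interval -0.07 to 0.13, limma adjusted p = 0.556), -0.26 after 24 h (SE 0.043, limma adjusted p = 3.18e-04) and -0.29 from 12 h to 24 h (SE 0.043, limma adjusted p = 0.00105). Both of the latter calls held in all 20 alternatives. The ratio of MTTP to APOB within a library was 0.0323 ± 0.00125 (SD, n = 3) with Gln added, 0.0316 ± 0.00118 after 12 h and 0.0268 ± 0.000812 after 24 h.

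APOE, the ligand through which remnant particles bind their receptors, was higher after 24 h. Its levels were 686, 668 and 649 FPKM with Gln added, 726, 706 and 674 after 12 h and 804, 695 and 780 after 24 h. The 24 h libraries lay above all Gln-added libraries, replicate 2 only just, and the 12 h libraries overlapped with both groups. The log2 fold change was 0.07 after 12 h (95% interval -0.05 to 0.19, limma adjusted p = 0.271), 0.18 after 24 h (SE 0.054, limma adjusted p = 0.0112) and 0.11 from 12 h to 24 h (95% interval -0.01 to 0.23, limma adjusted p = 0.171). After 12 h, APOE passed when FPKM were rescaled without the 10 most abundant genes (0.11), and it did not in the other alternatives. The rise after 24 h did not pass with no filter on low values (adjusted p = 0.0532). Without replicate 2 at 24 h, the difference between the times became 0.17 and passed (adjusted p = 0.0158).

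APOC1, which lies next to APOE on chromosome 19 and inhibits lipoprotein uptake and plasma lipid transfer, went the other way. Its levels were 258, 251 and 249 FPKM with Gln added, 236, 213 and 215 after 12 h and 233, 198 and 219 after 24 h. All deprived libraries lay below the Gln-added libraries, and those of the 2 times overlapped. The log2 fold change was -0.19 after 12 h (SE 0.059, limma adjusted p = 0.0157), -0.23 after 24 h (SE 0.059, limma adjusted p = 0.00631) and -0.03 between the times (95% interval -0.16 to 0.10, limma adjusted p = 0.744). The call after 12 h was lost without replicate 1 with Gln added (adjusted p = 0.0539), without replicate 2 at 12 h (0.0618) or without replicate 3 at 12 h (0.0501), and the call after 24 h held in all 20 alternatives. An unnamed gene on the same strand, ENSG00000280087, shares 40.7% of the exonic bases of APOC1 in GENCODE v44, so the level of APOC1 is uncertain to the extent that shared fragments were counted for it.

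APOH, a phospholipid-binding plasma glycoprotein that is found in part on lipoproteins, fell with little spread. Its levels were 1279, 1304 and 1349 FPKM with Gln added, 1143, 1118 and 1122 after 12 h and 1068, 1048 and 1054 after 24 h. The 3 groups did not overlap. APOH had log2 fold changes of -0.22 after 12 h (SE 0.032, limma adjusted p = 1.83e-04), -0.31 after 24 h (SE 0.032, limma adjusted p = 9.93e-06) and -0.09 from 12 h to 24 h (SE 0.032, limma adjusted p = 0.0647). The falls after 12 h and 24 h held in all 20 alternatives, and the difference between the times passed with median-ratio scaling (-0.11, adjusted p = 0.0486) and in voom (-0.09, adjusted p = 0.0344).

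Ratios within a library show how the balance between partner genes shifted, independently of scaling between libraries. APOA2 to APOA1 was 1.87, 1.91 and 1.92 with Gln added, 2.22, 2.18 and 2.08 after 12 h and 2.36, 2.55 and 2.48 after 24 h, 3 groups with no overlap. APOC1 to APOE was 0.379 ± 0.00476 (SD, n = 3) with Gln added, 0.315 ± 0.0124 after 12 h and 0.285 ± 0.00522 after 24 h, again with no overlap between any groups. The ratio of APOC3 to APOA1, genes that lie tail to tail in the same cluster, was 0.150 ± 0.00848 with Gln added, 0.116 ± 0.00814 after 12 h and 0.102 ± 0.0120 after 24 h, where the last 2 groups overlapped. It was lower in all 6 deprived libraries than in any with Gln added. APOB to APOA1 was 0.614 ± 0.0246 with Gln added, 0.823 ± 0.0240 after 12 h and 0.824 ± 0.0850 after 24 h, both deprived groups above all Gln-added libraries. Each of these differences without overlap has an exact permutation p of 0.1, the smallest that 3 libraries against 3 allow, in a family of 5 ratios and 3 comparisons, so none can pass a threshold of 0.05.

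Across the 9 libraries, the 9 genes fell into a few patterns, given here as Pearson r of log2(FPKM + 0.1) over libraries that share the 3 groups, as a description. APOA1, APOC1, APOC3 and APOH ran together, with r from 0.80 (APOC1 with APOC3) to 0.97 (APOC3 with APOH). APOM ran opposite to them, with r = -0.90 to APOH and -0.62 to APOC1, and alongside APOE (r = 0.85). APOA2 and APOB were opposite to each other (r = -0.87). Of the 5103 other genes at 10 FPKM or more on average, those most like each gene in the same measure were PEBP1 (r = 0.995) and RARRES2 (0.994) for APOA1, EIF2AK1 (0.993) and NME4 (0.992) for APOC3, RNASEH2A (0.996) and AIF1L (0.992) for APOH, and COX7C (0.979) and NDUFB2 (0.973) for APOC1. For APOM they were GLRX (0.987) and SORT1 (0.986), for APOE FBXO2 (0.970) and CD63 (0.963), for MTTP MRPS9 (0.972) and NPNT (0.964), for APOA2 GOLGA5 (0.976) and ILK (0.976), and for APOB PRRC2C (0.947) and NCOA3 (0.946). SORT1, the gene most like APOM but for GLRX, encodes a sorting receptor that binds APOB in the Golgi.

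The 9 genes sit in part in clusters. Taken over all 9, their neighbours within 100 kb did not share a direction, though those around APOM mostly rose as APOM did. On chromosome 11, in the cluster that holds APOC3 (chr11:116829706-116833072, plus strand) and APOA1, the neighbor APOA5, an activator of plasma triglyceride lipolysis, fell by 0.97 after 12 h and 1.04 after 24 h on the log2 scale (limma adjusted p = 5.33e-06 and 2.14e-06). Its levels were 36.2, 35.5 and 34.2 FPKM with Gln added, 19.6, 18.5 and 16.1 after 12 h and 19.5, 15.3 and 16.8 after 24 h. APOA4, a lipid-binding apolipoprotein mainly of the intestine, was at 1.72 ± 0.229 FPKM (SD, n = 3) with Gln added and 2.33 ± 0.358 after 24 h, with log2 fold changes of 0.08 after 12 h (limma adjusted p = 0.621) and 0.42 after 24 h (limma adjusted p = 0.0185). Exons of an unnamed gene on the opposite strand cover 43.2% of those of APOA4, so its level is uncertain. The call of APOA4 after 24 h was lost without replicate 2 with Gln added (adjusted p = 0.0768) and without replicate 1 or replicate 2 of 24 h (0.0693 and 0.0505). It was also lost with no filter on low values (limma adjusted p = 0.0543). The kinase gene SIK3, on the other side of APOA1, rose by 0.90 and 0.86 (limma adjusted p = 4.45e-07 and 4.11e-07). The lower end of APOA4 lies at -9.21 kb from that of APOC3. After 24 h APOC3 was called lower and APOA4 higher, the latter a call that did not hold in all alternatives.

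On chromosome 19, around APOE (chr19:44905791-44909393, plus strand) and APOC1 (chr19:44914247-44919349, plus strand), the adjoining gene TOMM40, a pore of the mitochondrial outer membrane, was at -0.03 after 12 h (limma adjusted p = 0.568) and -0.12 after 24 h (limma adjusted p = 0.0488). RELB, a subunit of the transcription factor NF-κB at the far end of the window, rose by 1.54 and 1.71 (limma adjusted p = 1.13e-07 and 3.27e-08). Around APOM on chromosome 6, 8 of 10 tested neighbours rose after 12 h and 9 after 24 h, and CLIC1, a chloride channel protein, rose by 0.80 and 0.88 (limma adjusted p = 1.06e-07 and 3.17e-08). Over all neighbours of the 9 genes, 33 of 53 were tested. After 12 h 14 rose, 8 of them around APOM, and 5 fell. After 24 h 14 rose, 9 of them around APOM, and 8 fell. Of all genes tested, 29.1% were called higher and 31.0% lower after 12 h, and 33.0% and 31.7% after 24 h.

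Promoter windows from RefSeq (GRCh38.p14), the 250 bases before a transcript start, were at hand for 6 of the 9 genes, with 9 windows in all: APOA2, APOC1, APOE, APOH, APOM and MTTP. APOA1, APOB and APOC3 had no window. The study concerns G-quadruplexes, folded structures of guanine-rich DNA, so the windows were searched for the pattern of 4 runs of at least 3 G with 1 to 7 bases between them, on both strands. It was found in 3 of the 9 windows, 1 each of APOE, APOC1 and MTTP, and other windows of APOE and MTTP lack it. Of 35116 promoter windows of the same length 23.5% hold it, and 31.6% of those of tested genes. The 3 windows with the pattern are printed with the matched bases in capitals, and the window of APOM is shown for contrast as the gene that rose most. The pattern of APOE was matched on both strands in stretches that follow each other, 78 and 59 bases before the RefSeq start. That of APOC1 lay 167 bases and that of MTTP 24 bases before the RefSeq start of its window. The printed windows of APOC1 and APOM lie inside the GENCODE spans given above, before a start within the gene. The MTTP window runs past the first base of the GENCODE gene (chr4:99564081).
APOE, chr19:44905546-44905795, plus strand: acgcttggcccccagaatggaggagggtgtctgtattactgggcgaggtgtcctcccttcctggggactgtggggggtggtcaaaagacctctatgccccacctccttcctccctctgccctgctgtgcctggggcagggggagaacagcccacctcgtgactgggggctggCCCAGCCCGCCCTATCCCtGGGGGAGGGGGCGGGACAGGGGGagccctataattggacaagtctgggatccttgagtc
APOC1, chr19:44914422-44914671, plus strand: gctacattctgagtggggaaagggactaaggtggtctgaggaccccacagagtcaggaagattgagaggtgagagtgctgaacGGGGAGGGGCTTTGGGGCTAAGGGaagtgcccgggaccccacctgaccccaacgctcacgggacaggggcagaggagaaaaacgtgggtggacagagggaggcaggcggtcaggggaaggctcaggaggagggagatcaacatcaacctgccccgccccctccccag
MTTP, chr4:99563880-99564129, plus strand: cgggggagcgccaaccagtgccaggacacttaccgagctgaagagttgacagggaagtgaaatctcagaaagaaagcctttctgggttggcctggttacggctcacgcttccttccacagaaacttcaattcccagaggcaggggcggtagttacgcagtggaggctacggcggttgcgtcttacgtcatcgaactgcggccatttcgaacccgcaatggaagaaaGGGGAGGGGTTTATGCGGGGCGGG
APOM, chr6:31655644-31655893, plus strand: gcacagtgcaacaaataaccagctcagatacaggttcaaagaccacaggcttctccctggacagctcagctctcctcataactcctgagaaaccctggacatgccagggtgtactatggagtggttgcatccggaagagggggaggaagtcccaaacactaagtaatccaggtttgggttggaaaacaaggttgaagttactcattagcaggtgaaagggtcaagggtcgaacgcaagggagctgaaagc
Of the 3 genes that hold the pattern, APOE was higher after 24 h and APOC1 and MTTP were lower. The letters searched for other factors were CAAAGTCCA (HNF4), TGANTCA (AP-1), TGATGNAA (the CEBP-ATF composite), GTTAATNAT (HNF1) and TCACNCCAC (a sterol element). None of these was in the 9 windows, and they occur in 0.325%, 6.57%, 3.14%, 0.723% and 0.883% of all windows. In windows of tested genes they occur in 0.344%, 4.29%, 1.64%, 0.579% and 0.85%. The TATA letters TATAAA occur in 10.7% of all windows and 5.64% of those of tested genes. They were found in the other window of MTTP alone, on the opposite strand. No 2 matches overlapped, and a match describes the letters and not a site.

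Of 12 genes in the table that encode other apolipoproteins or the HDL-bound paraoxonases PON1 and PON3, 8 were tested. At 12 h, 1 rose and 6 fell, and after 24 h, 2 rose and 5 fell. Those that fell include APOA5 (above) and CLU, the chaperone-like apolipoprotein J, with log2 fold changes of -0.22 after 12 h and -0.37 after 24 h (limma adjusted p = 4.91e-04 and 8.20e-06) from 212 ± 4.4 FPKM. APOL1, which circulates on HDL and lyses trypanosomes, fell by 0.67 and 0.69 and APOF, a lipid transfer inhibitor, by 0.38 and 0.36. APOL6, an intracellular relative of APOL1, rose by 0.95 and 1.17, from 2.80 ± 0.078 FPKM to 5.51 ± 0.34 and 6.45 ± 0.22. PON3, the paraoxonase among the 8, fell by 0.21 and 0.25 (limma adjusted p = 0.0291 and 0.0141) and was named here after its values were seen. The median log2 fold change of this list was -0.25 after 12 h and -0.30 after 24 h. For this list and those below, the shares over all genes tested were 29.1% higher and 31.0% lower after 12 h. After 24 h they were 33.0% and 31.7%, and the medians over all genes were -0.02 and 0.01.

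The genes that assemble and load lipoproteins were called at near the shares of all genes. Of 16 genes, all tested, 5 rose and 5 fell after 12 h, and 5 rose and 6 fell after 24 h, with medians of -0.04 at both times. P4HB, the smaller subunit of the MTTP complex and a disulfide isomerase, fell by 0.30 after 12 h and 0.35 after 24 h, from 691 ± 9.6 FPKM to 560 ± 18 and 542 ± 7.9 (SD, n = 3), so that its fall was already called when MTTP was at 0.03. DGAT1, which makes triglyceride, fell by 0.63 and 0.81. TMED10 and SURF4, cargo receptors of the early secretory pathway, fell by 0.45 and 0.31 after 12 h and by 0.28 and 0.23 after 24 h. MIA2, which helps load large cargo into transport carriers, rose by 0.72 and 0.70, PLIN2, the coat protein of lipid droplets, by 0.70 and 0.65, and SOAT2, which makes cholesteryl ester, by 0.40 and 0.43. MIA2 has close relatives in the CTAGE family, with which it may share reads.

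Among genes of HDL formation and plasma lipases, 7 of 9 in the table were tested, and 2 rose and 4 fell at each time, with medians of -0.29 at both. CETP and LIPG were under the filter of 0.5 FPKM. LIPG, named after its values were seen, was at 0.898 ± 0.089 FPKM with Gln added. It was at 0.222 ± 0.043 after 12 h and 0.216 ± 0.060 after 24 h, without overlap with Gln added, and was not tested. ABCA1, which gives cholesterol to APOA1, fell by 0.39 after 12 h and 0.29 after 24 h. PLTP, the phospholipid transfer protein, fell by 0.36 and 0.57, LIPC (hepatic lipase) by 0.47 and 0.50, and LCAT, the cholesterol-esterifying enzyme that APOA1 activates, by 0.18 and 0.31. The call of LCAT after 12 h (limma adjusted p = 0.0323) was lost in 9 of 20 alternatives, among them without replicate 3 at 12 h (adjusted p = 0.116). ANGPTL8, which takes part in the inhibition of lipoprotein lipase, rose by 0.98 and 1.29, from 28.7 ± 1.3 FPKM to 56.8 ± 0.68 and 70.3 ± 6.4, and FURIN, a protease that cleaves lipases, by 0.86 and 0.75. APOC3 and ANGPTL8, both inhibitors of lipoprotein lipase, thus moved in opposite directions.

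Receptors of lipoproteins and the genes that control them changed in both directions. Of 10 genes, 9 were tested, 2 rose and 2 fell after 12 h, and 4 rose and 3 fell after 24 h, with medians of 0.09 and 0.08. SCARB1, the receptor that takes up cholesterol from HDL, fell by 0.36 after 24 h, from 65.8 ± 2.78 to 51.1 ± 0.872 FPKM. LRP8, a receptor for APOE, fell by 0.84 and 1.15, and SDC1, a heparan sulfate proteoglycan that takes up remnants, by 0.54 and 0.69. VLDLR, another APOE receptor, rose by 1.35 and 1.52 from 1.26 ± 0.14 FPKM, SORL1, a sorting receptor that binds APOE, by 0.45 and 0.42, and MYLIP, a ubiquitin ligase that degrades lipoprotein receptors, by 0.56 after 24 h.

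Of 24 transcription factors known to act on apolipoprotein genes, all tested, 11 rose and 5 fell after 12 h, and 11 rose and 8 fell after 24 h, with medians of 0.13 and 0.09. HNF4A, a central regulator of APOA1, APOC3, APOB and MTTP, was at 56.0 ± 0.13 FPKM with Gln added, 59.7 ± 2.8 after 12 h and 52.7 ± 1.6 after 24 h (SD, n = 3). Its log2 fold changes of 0.09 and -0.09 did not pass (limma adjusted p = 0.0781 and 0.075), and it fell by 0.18 from 12 h to 24 h (limma adjusted p = 0.0115). HNF4A after 12 h passed without replicate 3 at 12 h (0.12, adjusted p = 0.0226), and after 24 h without replicate 1 at 24 h (-0.11, adjusted p = 0.0363) or replicate 3 at 12 h (adjusted p = 0.0470). CEBPA, the liver-enriched C/EBP factor, fell by 0.29 and 0.61, and CEBPB, its stress-responsive relative, rose by 1.44 and 1.48. Exons on the opposite strand cover 43.9% of those of CEBPA and 12.6% of those of CEBPB, and reads from them cannot be told apart if strand was not used. SREBF2, the regulator of cholesterol genes, fell by 0.65 and 0.82, ONECUT1 by 0.63 and 0.95 and FOXA1 by 0.41 and 0.50. PPARGC1A, a coactivator of fasting genes, rose by 1.19 and 1.67, and NR0B2, a corepressor of HNF4A, by 0.75 and 1.13.

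Other secreted plasma proteins of the liver went both ways. Of 20, 19 were tested, 6 rose and 9 fell after 12 h, and 6 rose and 10 fell after 24 h, with medians of -0.06 and -0.15. HP, which binds free hemoglobin, fell by 1.39 and 1.31, from 39.3 ± 4.2 FPKM to 14.8 ± 0.49 and 15.7 ± 1.6. The fibrinogen chains FGA and FGG fell by 0.47 and 0.51 after 12 h and by 0.36 and 0.45 after 24 h, and HPX by 0.45 and 0.68. HPX after 12 h lost its call without replicate 3 at 12 h (adjusted p = 0.113) and without any 1 of the libraries with Gln added (0.0650 to 0.0791). AFP, the fetal albumin, fell by 0.31 and 0.51. AMBP, an inhibitor precursor, rose by 0.25 and 0.42, C3, the central complement protein, by 0.17 and 0.37, and VTN by 0.18 and 0.17. SERPINC1 (antithrombin) rose by 0.22 after 12 h and A1BG by 0.43 after 24 h. A1BG after 12 h passed without replicate 3 at 12 h (0.20, adjusted p = 0.0313). HP has a near-identical copy, HPR, and 40.6% of the exonic bases of A1BG are shared with another gene on its strand, so both are uncertain.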

How the data were processed

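RNA from 9 HepG2 samples was sequenced in 3 groups of 3. The methods describe strand-specific libraries that the authors aligned to GRCh38 with STAR and tested with DESeq2. The labels name another library kit, so the strandedness is not settled, and their processing notes name HTSeq and R 3.2.0. The annotation is not given in the sources used here. The deposited values are FPKM, which the authors scaled to depth and gene length.

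From these FPKM, whole fragments were recovered for 22521 of 22587 genes (tolerance 0.02 fragments), which gave 29621270 to 36261546 fragments per library. Each pair of replicates differed beyond sampling noise, so none was counted as 1 sample. Genes were tested with limma 3.58.1 in R 4.3.3 (lmFit, eBayes with a trend) on log2(FPKM + 0.1), with all 3 groups in 1 fit. A mean of 0.5 FPKM over the 9 libraries was required, which left 11880 genes, and p-values were adjusted over all of them by Benjamini-Hochberg at 0.05. FPKM are not counts, so DESeq2 was not run. The pseudocount makes changes of low genes look smaller. The fit was tested on simulated data. Ratios and single values were compared by two-sided exact permutation in scipy 1.17.1.

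Genes were named by a rule: the 9 genes, from each of 6 lists up to 3 highest and 3 lowest called changes at each time (mean of 1 FPKM or more, groups without overlap), 2 genes most like each of the 9, neighbours within 100 kb, and HNF4A. The 9 genes and the lists were chosen with earlier results of these data known, and 3 genes of the lists are not reported here. As alternatives, the pseudocount was set to 1 or 0.01, the filter was dropped or raised to 1 FPKM, 3 other scalings were used, the fit held only the groups compared, the trend was dropped, the replicate number entered as a block, voom was run on recovered fragments, and each library was left out. Same-numbered libraries correlated from -0.14 to 0.28 in their deviations. With 3 libraries a group, these values cannot decide whether the numbers pair samples, and the main fit held no block. Positions are from GENCODE v44 on GRCh38 and promoters from RefSeq. Lengths implied by the FPKM differ from those of GENCODE v44 (474 and 945 bases for APOA2). Plots were made in matplotlib 3.10.9 and Python 3.11.15.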

Additional observations from a re-analysis of the deposited data

Results flagged for a closer look

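The changes at 12 h and 24 h share the Gln-added libraries, and their difference was tested directly as 24 h against 12 h. Each gene given here differed between the 2 times at an adjusted p under 0.05 from limma, and the value is the log2 fold change of 24 h against 12 h. Of the 9 genes, APOM was higher at 24 h (0.34), and MTTP (-0.29) and APOC3 (-0.24) were lower. APOM and MTTP kept this call in all 20 alternatives and APOC3 in 13.

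Of the related genes, those higher at 24 h were PPARGC1A (0.49), MYLIP (0.41), NR0B2 (0.39), ANGPTL8 (0.30), A1BG (0.29), APOL6 (0.23), C3 (0.20), TMED10 (0.17), AMBP (0.16) and FGA (0.11). Those lower at 24 h were CEBPA (-0.32), ONECUT1 (-0.32), LRP8 (-0.31), SCARB1 (-0.24), PLTP (-0.20), AFP (-0.20), HNF4A (-0.18), SERPINC1 (-0.18), SREBF2 (-0.17), CLU (-0.15) and SDC1 (-0.15). Other genes of the lists also differed. Higher at 24 h were APOL2 (0.52), NR2F1 (0.24), PPARD (0.20), SORT1 (0.20), AHSG (0.17) and ITIH2 (0.11). Lower at 24 h were DGAT2 (-0.30), CREB3L3 (-0.21), CES1 (-0.19), NR1H4 (-0.18), RXRA (-0.16) and RBP4 (-0.16). Alternatives for these other genes are not given here. The differences of ONECUT1, TMED10, AMBP, MYLIP and SDC1 each lost their call when at least 1 of the libraries was left out, with adjusted p from limma up to 0.137, 0.128, 0.140, 0.127 and 0.104. So did those of APOC3, APOL6, CLU, FGA and SCARB1, with adjusted p up to 0.0948, 0.0885, 0.0683, 0.0697 and 0.0580. Groups of 3 libraries are too small for a test of single outlying values.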

How the results depend on the processing

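Of the changes of APOA1, APOC3, APOH and APOM at 12 h and of APOA1, APOC1, APOC3, APOH, APOM and MTTP at 24 h against Gln added, each kept its direction and its call in all 20 alternatives. The number of the 9 genes that rose at 12 h was 2 when FPKM were rescaled to the same total, 3 when the 10 most abundant genes were left out of that total and 2 in voom, against 1 as reported. At 24 h it was 1 with no filter on low values, against 2. From 12 h to 24 h, 2 rose with either rescaling, with the replicate block (APOA2, adjusted p = 0.0308) and in voom, 1 fell with no filter, with only the 2 groups compared or without a trend, and 5 were called in voom, against 1, 2 and 3. Leaving out 1 library gave 1 to 3 that rose, the most without replicate 2 at 24 h, and 1 to 2 that fell. The replicate block changed no other call of the 9 genes and called 7341, 7802 and 2586 of all genes at 12 h, at 24 h and between the times. The 12 h and 24 h libraries did not all correlate best with their own number. In the list of other apolipoproteins and paraoxonases, 1 rose at 24 h with no filter, and 1 to 3 with a library left out. APOA2 at 24 h turned to 0.0080 and 0.0137 under the rescalings. With a library left out, APOB at 24 h ranged from -0.0151 to 0.021, APOC1 from 12 h to 24 h from -0.0881 to 0.0314, MTTP at 12 h from -0.0034 to 0.0579, APOA4 at 12 h from -0.0264 to 0.1478, and the fold of APOB to APOA1 from 12 h to 24 h from 0.9492 to 1.0524. The causes were not tested. Voom called 7312, 7857 and 2639 of all genes. Over all alternatives, 6455 to 7434 were called at 12 h, 7034 to 7882 at 24 h and 1652 to 2639 between the times. With 3 libraries a group, shifts such as that of APOB at 12 h lie at the edge of what the spread allows.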
